A study of Mus musculus with 24 samples.

Results

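The periportal side of the mouse liver lobule was profiled here as 12 microRNA arrays, out of 24 in the series. They hold hepatocytes of zones 5, 6, 7 and 8, the 4 sorted populations nearer the portal vein, with 1 array from each of 3 mice in each zone. They were chosen by the zone in the sample labels: the 6 arrays of zones 7 and 8, the most portal, were set against the 6 arrays of zones 5 and 6, within each mouse, and the profile over the 4 zones was followed. The mice were untreated male C57BL/6J animals of 3 months, fed ad libitum in a reverse light-dark cycle. After liberase perfusion, viable tetraploid hepatocytes free of CD45 and CD31 were sorted by CD73, higher toward the central vein, and E-cadherin, higher toward the portal vein, with 50000 cells per population. The zones are therefore sort gates on 2 surface proteins, taken as a proxy for position. The question addressed is whether microRNA levels still change with position once cells are already on the portal side.

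MicroRNAs are short RNAs that lower the output of target messenger RNAs, and most pair with them through the seed, bases 2 to 8 from the 5′ end, so that microRNAs with one seed tend to share targets. Blood flows from the portal to the central vein, so periportal hepatocytes meet more oxygen and nutrients and are known for gluconeogenesis, urea synthesis and fatty acid oxidation. Hepatocyte microRNA is dominated by miR-122, the liver's own microRNA, with a second layer of broadly expressed families such as let-7 and miR-30.

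The mature sequences of the microRNAs that the results turn on are given here in lower case with the seed in capitals, from RefSeq on build GRCm38.p6, where 258 of the 302 tested microRNAs had an entry. The first set are microRNAs with higher levels toward zone 8 that are described first.
miR-802-5p: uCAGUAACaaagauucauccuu
miR-31-5p: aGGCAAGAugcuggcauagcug
miR-31-3p: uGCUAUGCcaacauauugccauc
miR-149-5p: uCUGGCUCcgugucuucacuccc
miR-137-3p: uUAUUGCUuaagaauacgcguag
miR-193b-3p: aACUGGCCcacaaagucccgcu
miR-193a-3p: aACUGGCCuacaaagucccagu
miR-193a-3p is shown because it has the seed of miR-193b-3p. The second set are the miR-99, let-7e and miR-125 group, whose members come from related clusters and had differences of like size.
miR-99a-5p: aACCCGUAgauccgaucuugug
miR-100-5p: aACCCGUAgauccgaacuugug
miR-125a-5p: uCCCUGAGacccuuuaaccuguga
miR-125b-5p: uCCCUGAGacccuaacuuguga
let-7e-5p: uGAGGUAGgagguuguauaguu
The third set are members of the repeat-rich miR-466 and miR-467 families, which lay lower toward zone 8. All 3 carry a stretch of alternating c and a. Probes for sequences that share such a stretch may take up each other's RNA, so their signals may not be independent. This was not measured here.
miR-466q: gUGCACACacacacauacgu
miR-467f: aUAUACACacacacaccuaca
miR-466i-3p: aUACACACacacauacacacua
The miR-802-5p sequence lies at chr16:93369737-93369758 on the plus strand, inside no other listed gene. That of miR-31-5p lies at chr4:88910614-88910635 on the minus strand, within the span of Gm49890. That of miR-149-5p lies at chr1:92850381-92850403 on the plus strand, within the span of Gpc1. miR-125a-5p at chr17:17830817-17830840 and let-7e-5p at chr17:17830366-17830387 lie on the plus strand within the span of Spaca6, and miR-193b-3p at chr16:13449570-13449591 lies near Mir365-1, within the spans of Gm32817 and Gm53058. Exons and introns of these host genes were not examined here.

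On the 12 arrays the summed signal ranged from 57935 to 138301 and 252 to 368 mouse microRNAs of 1881 were detected. Of the 425 detected on any of them, 214 were detected on all 12, and the 302 detected on at least 6 were tested. Values below are log2 of the total gene signal after each array was scaled to its 75th percentile, and an undetected microRNA is set at a floor of 0.17. Arrays of one mouse correlated at 0.934 to 0.992 over the tested microRNAs and arrays of one zone at 0.909 to 0.966. Each mouse lay on a slide of its own and zones 5 to 8 on columns 1 to 4 of its second row, so zone and column cannot be told apart. Zones 1 to 4 lay on the same columns of the first row. Of 19 array-wide measures, none reached an adjusted p under 0.528 between zones 7 and 8 and zones 5 and 6 in the exact two-sided permutation test within mice, whose smallest possible p was 0.00926 and smallest observed p 0.0556. Zone 8 against zone 5 was not tested in this way. There the scaled control sequences hur_2, hur_4 and mr_1 and the signal shares of miR-3963 and miR-3968 were lower in zone 8 in all 3 mice. The share of miR-122-5p and the unscaled control hur_6 were higher in all 3, and the other measures were of mixed sign.

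The label of hepatocytes was checked against defining microRNAs. miR-122-5p was detected on all 12 arrays and took 11.6% to 21.6% of the summed signal. miR-6366 took 23.0% to 33.7% and miR-3963 20.4% to 29.9%. Both had larger shares than miR-122-5p, except miR-3963 on the zone 8 array of mouse 1 (20.4% against 21.6%). None of 7 leukocyte and Kupffer cell markers, 7 stellate cell and fibroblast markers or 3 erythroid markers was detected on any array. Of 5 biliary and other epithelial markers only miR-200b-3p was, on 1 array. The endothelial miR-126a-3p was detected on 2, 3, 2 and 2 of 3 arrays in zones 5, 6, 7 and 8, with a difference between the zone pairs of -0.23 ± 0.26 (SE) on the log2 scale, -0.56 with a floor 4 times lower, 0.03 with quantile normalization and 0.12 without zone 6, while the second endothelial marker was not detected. Fewer cells with a microRNA and less of it per cell cannot be told apart in these sorted pools.

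Between zone 5 and zone 8, miR-802-5p rose and miR-709 fell, and no other microRNA passed the threshold in this or any other comparison as fitted here with limma (1 of 302 in each direction, 0.331% and 0.331%). miR-802-5p, a microRNA known for impairing insulin action when raised in liver, measured 2.82, 3.42 and 3.24 in zone 5 of mice 1, 2 and 3. It measured 3.57, 4.10 and 3.53 in zone 6, 3.74, 4.39 and 3.91 in zone 7, and 3.58, 4.35 and 3.79 in zone 8. In every mouse zone 5 was the lowest of the 4 zones, zone 7 the highest, and zone 8 lay above zone 5. The difference between zone 8 and zone 5 was 0.74 ± 0.11 (SE, n = 3 mice), 1.67-fold, with an adjusted p of 0.0406 (limma, Benjamini-Hochberg over 302 microRNAs).

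miR-709 is abundant on these arrays. It measured 7.14, 7.16 and 6.81 in zone 5 of mice 1, 2 and 3, 6.63, 6.65 and 6.32 in zone 6, 6.65, 6.45 and 6.08 in zone 7, and 6.62, 6.59 and 6.11 in zone 8. Zone 5 was the highest zone in each mouse. miR-709 fell by 0.60 ± 0.10 on the log2 scale from zone 5 to zone 8, 1.51-fold, with an adjusted p of 0.0406 in the same limma fit. Its log2 difference between zone 4 and zone 1, on the same columns of the first row, was 0.04, from -0.06 to 0.22 over the 3 mice. The 5 control sequences detected on all 12 arrays had scaled log2 differences of -0.16 to -0.44 between zone 8 and zone 5. Before scaling these differences were -0.15 to 0.13. The part of the scaling and of the controls in the lower miR-709 was not tested.

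Both calls depended on the scaling and on each mouse. With no scaling between arrays the differences of miR-802-5p and miR-709 were 1.03 and -0.31, with limma adjusted p of 0.116 and 0.365. Without the mouse block both adjusted p rose to 0.341 and 0.340, and without mouse 1, 2 or 3 the adjusted p for miR-802-5p was 0.173, 0.534 and 0.0640 and for miR-709 0.173, 0.534 and 0.129. Leaving out single arrays kept the miR-802-5p call only without the zone 5 array of mouse 3, and the miR-709 call never.

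**Figure D1:**
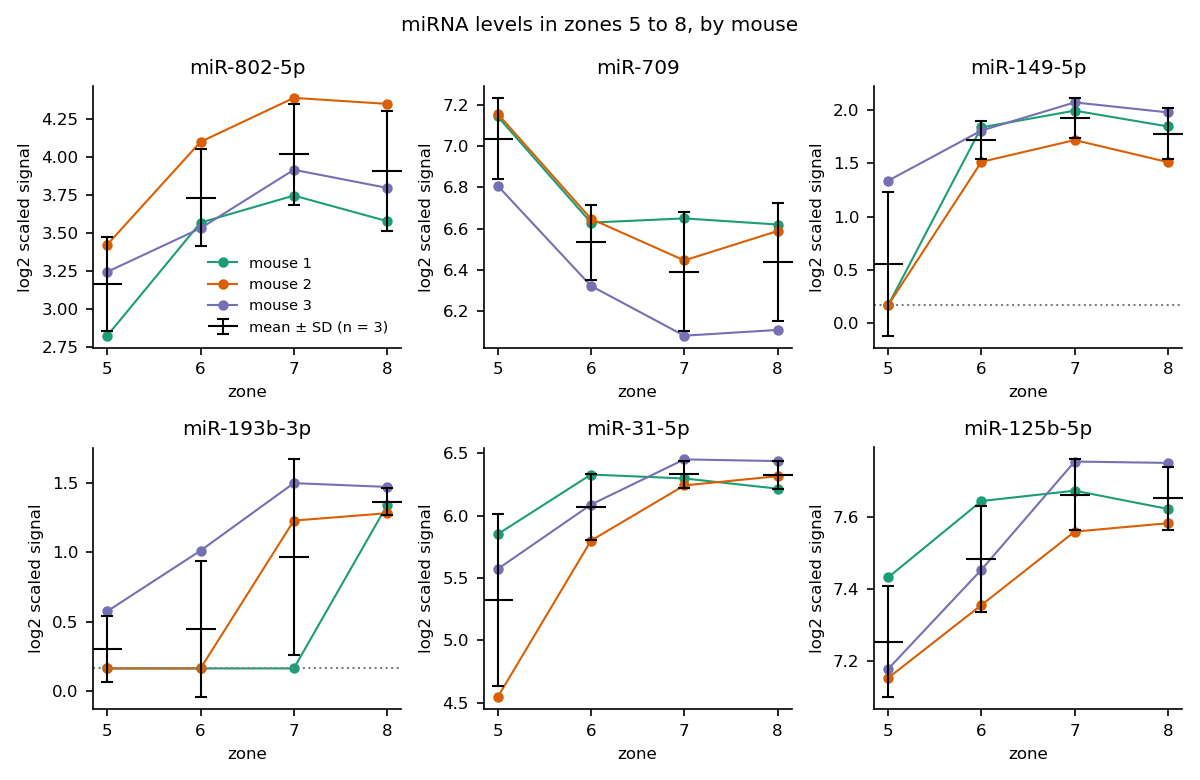
Log2 scaled signal of 6 microRNAs (vertical axes, each with its own range) against zone 5 to 8 (horizontal), with one coloured line per mouse and black bars for the mean ± SD of 3 mice; the dotted line is the floor for undetected values. In miR-802-5p, miR-709, miR-149-5p and miR-31-5p the widest step of the mean lies between zones 5 and 6, while miR-193b-3p left the floor later in mice 1 and 2.

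Across the 4 zones the steps were unequal. At an unadjusted p under 0.05, zone 6 exceeded zone 5 for 10 microRNAs (3.31%) and lay under it for 24 (7.95%). From zone 6 to zone 7 there were 4 (1.32%) higher and 1 (0.331%) lower, and from zone 7 to zone 8 there were 10 (3.31%) and 1 (0.331%). None passed the adjusted threshold in any of the 3 steps in limma (0 of 302 higher and 0 lower, 0%). The median absolute difference was 0.20 on the log2 scale for the first step, 0.13 for the second and 0.12 for the third. Whether the first step differs from the later ones was not tested. For miR-802-5p the 3 steps were 0.57 ± 0.11, 0.28 ± 0.11 and -0.11 ± 0.11 (SE). For miR-709 they were -0.50 ± 0.10, -0.14 ± 0.10 and 0.05 ± 0.10. For both the first was the widest step of the mean. The smallest adjusted p of the first step was 0.115, shared by miR-802-5p, miR-709 and miR-149-5p.

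Zones 7 and 8 together did not separate from zones 5 and 6 for any microRNA at the adjusted threshold (0 of 302 higher and 0 lower, 0%, smallest limma adjusted p 0.389). At an unadjusted p under 0.05, 20 (6.62%) were higher and 13 (4.30%) lower toward the portal end. In 45 microRNAs (14.9%) zones 7 and 8 were higher in all 3 mice and in 24 (7.95%) lower in all 3. The 2 groups of 6 arrays failed to overlap for 2 microRNAs (0.662%), both higher in zones 7 and 8, miR-22-5p and miR-31-3p, and for 0 (0%) in the other direction. Over all tested microRNAs the median difference was 0.03, with 171 of 302 above 0. These values move with the scaling: the median was 0.10 without scaling and -0.05 with the percentile taken over the microRNAs detected on all 12 arrays, and for zone 8 against zone 5 it was 0.03, 0.30 and -0.09 in the same order.

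The list with the highest median, with no member past the adjusted threshold, was the miR-31, miR-802, miR-137 and miR-149 group, microRNAs that none of the 12 pericentral arrays detected. All 5 tested arms were above 0, as were 171 of all 302, and 4 had an unadjusted p under 0.05 (6.62% of all tested on this side). The median was 0.72 against 0.03 over all tested microRNAs. Without zone 5 it was 0.23 with 4 of 5 above 0, and without zone 6 it was 1.30. With a floor 4 times lower it was 0.84, and without mouse 2 it was 0.47. The group was put together with results of these arrays known, so its direction is not independent evidence. miR-31-5p, a microRNA studied mostly in epithelia and tumours, measured 5.85, 4.55 and 5.57 in zone 5 and 6.33, 5.80 and 6.09 in zone 6 of mice 1, 2 and 3. It measured 6.30, 6.24 and 6.45 in zone 7 and 6.22, 6.32 and 6.44 in zone 8. The low array was zone 5 of mouse 2, and in mouse 1 zones 6, 7 and 8 lay close together. The difference between the zone pairs was 0.63 ± 0.23 (SE, limma adjusted p 0.389), and 0.41 without that array.

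miR-31-3p, the other arm of the same hairpin, ranged from 1.55 to 4.00 with a median of 3.60 in zones 5 and 6 and from 4.05 to 4.30 with a median of 4.20 in zones 7 and 8. The groups did not overlap. Its difference was 0.84 ± 0.34 (limma adjusted p 0.389), and 0.48 without the zone 5 array of mouse 2, which alone was at 1.55 while the next lowest was at 3.39.

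miR-149-5p was undetected in zone 5 of mice 1 and 2 and measured 1.34 there in mouse 3. In zone 6 it measured 1.84, 1.52 and 1.81, in zone 7 2.00, 1.72 and 2.07, and in zone 8 1.85, 1.51 and 1.98. In each mouse zone 7 was the highest and zone 8 lay below it. The difference between zone 8 and zone 5, 1.22 ± 0.22 against a floor in 2 of 3 mice, had a limma adjusted p of 0.0606, and it was 2.56 with a floor 4 times lower. miR-137-3p followed the same pattern: it was undetected in zone 5 of mice 1 and 2 and at 2.45 in mouse 3, and detected on all 9 arrays of zones 6 to 8 at 1.78 to 2.92. The miR-137-3p difference between the zone pairs was 0.81 ± 0.49 on the log2 scale, 1.48 with the lower floor and -0.04 with zone 5 left out.

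miR-193b-3p had the smallest unadjusted p of the comparison of zone pairs, 0.00171 in limma (adjusted p 0.389), and a step that came later. It was detected on 1, 1, 2 and 3 of 3 arrays in zones 5, 6, 7 and 8. In mouse 3 it measured 0.58, 1.01, 1.50 and 1.47 over the 4 zones, in mouse 2 it was first detected in zone 7 at 1.23, and in mouse 1 only in zone 8 at 1.34. The fitted difference was 0.79 ± 0.18 with the undetected values at the floor, and 1.79 with a floor 4 times lower, so its size is set by the floor. Its seed partner miR-193a-3p, detected on all 12 arrays, had a difference of 0.14 ± 0.07.

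The miR-99, let-7e and miR-125 group is a set of conserved microRNAs from related clusters, in which miR-99 and miR-100 are known for lowering mTOR. Of 13 arms on the array 7 were detected and 6 tested, all of them above 0 and 5 at an unadjusted p under 0.05 (6.62% of all tested on this side). The median was 0.28 against 0.03 over all tested microRNAs, and none passed the adjusted threshold. This list too was chosen with results of these arrays known, so its direction is not independent evidence. miR-125b-5p was the brightest, at 7.15 to 7.64 with a median of 7.39 in zones 5 and 6 and 7.56 to 7.75 with a median of 7.65 in zones 7 and 8. The groups overlapped through mouse 1, whose zone 6 was already at 7.64. Its difference was 0.29 ± 0.09 (SE), 1.22-fold, made of 0.11, 0.32 and 0.44 in mice 1, 2 and 3.

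The others in the group were alike in size. miR-99a-5p and miR-100-5p differ by few bases, and miR-125a-5p and miR-125b-5p share most of theirs. Probes may thus share their RNA, so their signals may not be independent, which was not measured here. Differences between the zone pairs were 0.32 ± 0.10 for miR-100-5p, 0.30 ± 0.09 for miR-99a-5p, 0.28 ± 0.09 for let-7e-5p and 0.21 ± 0.09 for miR-125a-5p, each smallest in mouse 1. The sixth, miR-125a-3p, was at 0.20 ± 0.25 and of opposite sign in mouse 3. miR-99b-5p was detected on 1 array of zone 8 alone and was not tested. Over the group, the median log2 difference between zone 8 and zone 5 was 0.15 in mouse 1, 0.54 in mouse 2 and 0.55 in mouse 3.

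By the correlation of mouse-centred values over the 12 arrays, the profiles most like that of miR-31-5p were those of miR-31-3p (Pearson r 0.985), miR-125a-5p (0.952), let-7e-5p (0.952), miR-100-5p (0.907) and miR-101c (0.905). The arrays share mice and scaling, and these values describe the 12 arrays only. The zone 5 array of mouse 2 was the lowest for miR-31-5p and, at 1.55, for miR-31-3p. Its weight in these correlations was not tested.

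**Figure D2:**
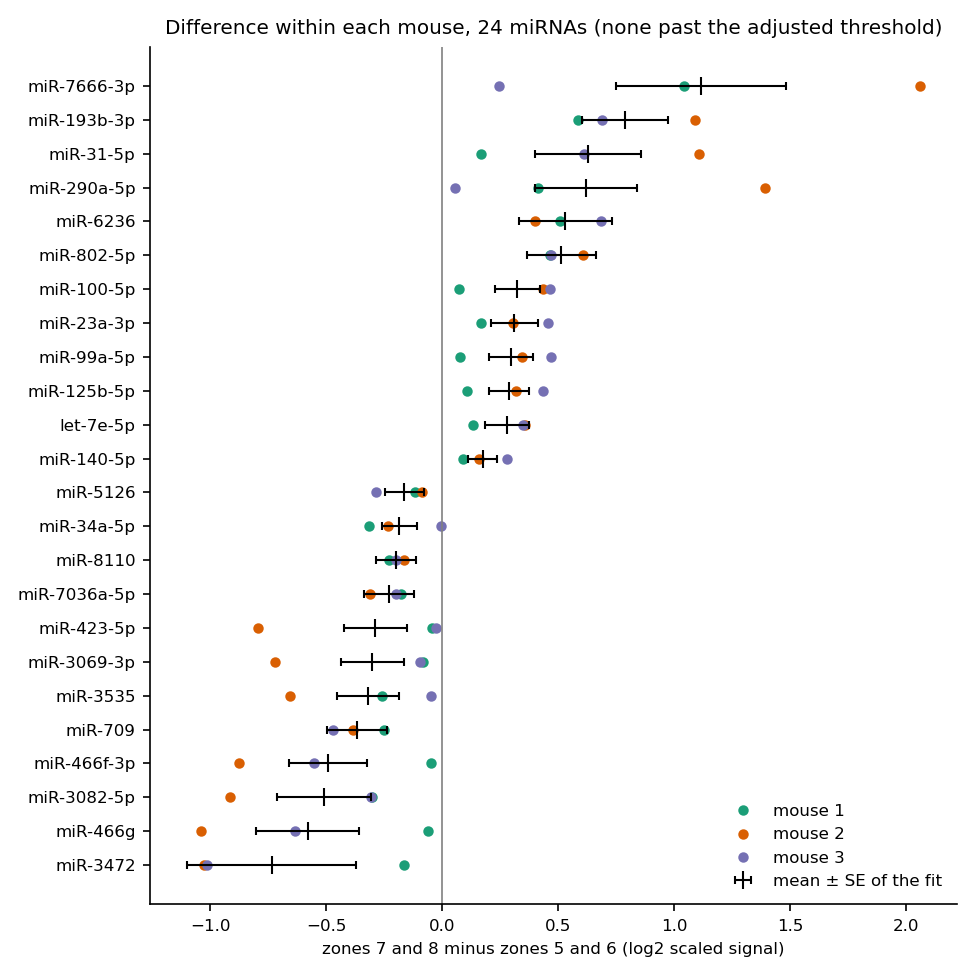
Difference between zones 7 and 8 and zones 5 and 6 on the log2 scale (horizontal) for the 12 microRNAs with the smallest unadjusted p in each direction and one sign in all 3 mice; coloured points are mice and black bars the mean ± SE of the fit. miR-802-5p and miR-193b-3p lie apart from 0 in each mouse, while in miR-100-5p, miR-99a-5p, miR-466f-3p and miR-466g mouse 1 lies close to 0.

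The clusters of miR-24 with miR-23 and miR-27, studied in metabolism and vessels, were also above 0 in all 5 tested arms, with a median of 0.11. Mature miR-24-3p comes from both clusters, on chromosomes 8 and 13, and its signal cannot be assigned to one. miR-23a-3p measured 3.03, 2.92 and 3.11 in zone 5 of mice 1, 2 and 3, 3.22, 3.24 and 3.16 in zone 6, 3.06, 3.32 and 3.58 in zone 7, and 3.52, 3.45 and 3.61 in zone 8. Every zone 8 array was above every zone 5 and zone 6 array. Its slope was 0.16 ± 0.04 per zone, the second smallest unadjusted p of the slopes after miR-193b-3p, with an adjusted p over the threshold. miR-27a-3p was undetected in zone 5 of mice 1 and 2, the arrays with the fewest microRNAs detected in those mice (252 and 278). Its difference between the zone pairs was 0.54 ± 0.26, 1.21 with the lower floor. miR-24-3p was level at 5.79 to 5.85 in zones 5, 6 and 7 and at 6.08, 6.08 and 5.92 in zone 8 of mice 1, 2 and 3.

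The other lists held smaller differences with no member past the adjusted threshold. All 10 hepatocyte-abundant microRNAs were above 0 with a median of 0.14, among them miR-122-5p at 0.12 ± 0.08, miR-192-5p at 0.13 ± 0.07 and miR-21a-5p at 0.21 ± 0.10. The let-7 and miR-30 members differ by few bases, so probes may share their RNA. All 8 tested miR-30 arms were above 0 (median 0.13; miR-30a-5p 0.14 ± 0.07), as were all 8 let-7 members (median 0.11; let-7g-5p 0.14 ± 0.08, let-7a-5p 0.11 ± 0.07). The medians of these 3 lists were -0.01, -0.0050 and 0.03 in mouse 1 and 0.29, 0.29 and 0.30 in mouse 3, where the median of all tested microRNAs was 0.16. With quantile normalization 4 of 8 let-7 members (median 0.0046) and 7 of 10 hepatocyte-abundant microRNAs (median 0.08) were above 0, miR-192-5p was at -0.02 and let-7a-5p at -0.04. With the percentile over the microRNAs detected on all 12 arrays the hepatocyte-abundant, miR-30 and let-7 medians were 0.06, 0.05 and 0.03, with 8 of 10, 7 of 8 and 6 of 8 above 0. Without mouse 3 they were 0.06, 0.04 and 0.01, with 8, 7 and 5 above 0.

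miR-148a-3p, a hepatocyte microRNA tied to lipid handling, measured 8.14 to 8.45 in zones 5 and 6 and 8.40 to 8.56 in zones 7 and 8, a difference of 0.19 ± 0.07 in the same direction in all 3 mice. The miR-148 and miR-152 list had a median of 0.14 over 3 members, the miR-29 list 0.13 over 4 with miR-29b-3p at 0.19 ± 0.08, and the miR-193 and miR-365 list 0.22 over 4. Lists on lipid and cholesterol (8 of 9 above 0, median 0.12), insulin and glucose (7 of 7, 0.10) and hypoxia (4 of 4, 0.21, with miR-210-3p at 0.21 ± 0.22) shared members with those above. Without mouse 3 the lipid list had 4 of 9 above 0 with a median of -0.0065 and the insulin list 3 of 7 with a median of -0.03. The hypoxia median was 0.38 with the floor 4 times lower, 0.34 without mouse 1 and 0.12, with 3 of 4 above 0, without mouse 2. The miR-15 family list, with miR-195, had a median of 0.07 over 5, led by miR-195a-5p at 0.49 ± 0.19 (1.16 with the lower floor), which was detected on 1, 2, 2 and 3 of 3 arrays over the 4 zones. The miR-103 and miR-107 pair was at 0.05, miR-221-3p at 0.15 ± 0.08, and the miR-17 to miR-92 clusters at a median of -0.02 with miR-92a-3p at -0.13 ± 0.11. The 3 tested Drosha-independent microRNAs had a median of 0.02. Medians of this list, of the miR-17 to miR-92 list, of the miR-103 pair and of the miR-15 and miR-29 lists changed sign under 1 or 2 of the 4 other scalings. In the Dlk1-Dio3 cluster 1 member of 10 was detected, too rarely to test.

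**Figure D3:**
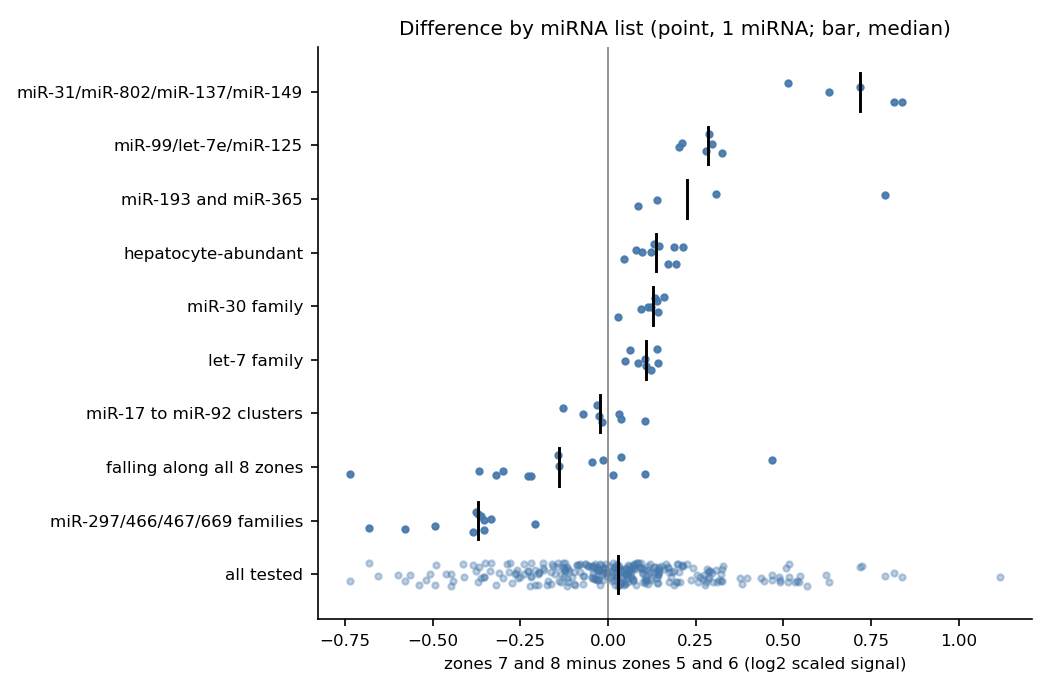
Difference between zones 7 and 8 and zones 5 and 6 on the log2 scale (horizontal) for each tested member of 9 lists and for all 302 tested microRNAs; a point is 1 microRNA and a black bar the median. The miR-31, miR-802, miR-137 and miR-149 list sits highest at a median of 0.72 (0.23 without zone 5). The tested miR-466, miR-467 and miR-669 members lie wholly below 0 at a median of -0.37. Their row also carries the name of miR-297, which had no tested member.

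Toward the low side, the tested members of the miR-466, miR-467 and miR-669 families, rodent-specific microRNAs from repeat-like loci, stood together. They were listed with miR-297, of which no arm was detected on these arrays. Of 61 arms on the array 24 were detected and 11 tested, and all 11 had a difference between the zone pairs below 0, 6 of them at an unadjusted p under 0.05 (4.30% of all tested), with a median of -0.37 against 0.03 over all tested microRNAs. The median was 0.04 in mouse 1, -0.65 in mouse 2 and -0.52 in mouse 3, and 3 of the 11 were below 0 in all 3 mice. It was -0.59 without mouse 1, -0.24 without mouse 2 and -0.20 without zone 5. The list was drawn by name after its values were seen, and no member passed the adjusted threshold. miR-466f-3p measured 4.35, 4.63 and 4.50 in zone 5 and 3.76, 3.87 and 3.66 in zone 8 of mice 1, 2 and 3. In zone 6 it measured 3.69, 4.78 and 4.17, and in zone 7 4.19, 3.79 and 3.91. The difference between the zone pairs was -0.49 ± 0.17, made of -0.05, -0.88 and -0.55 in mice 1, 2 and 3. Zone 8 was below zone 5 in each mouse, but mouse 1 was low in zones 6 and 8 and high in zones 5 and 7.

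That pattern held for the median of the 11 tested members. In mouse 1 their median difference from zone 5 was -0.60 in zone 6, -0.09 in zone 7 and -0.41 in zone 8. In mouse 2 it was -0.01, -0.80 and -0.67, and in mouse 3 it was -0.33, -0.58 and -0.83. In mouse 1 the same members were also low in zone 4, with a median of -0.91 against zone 1, where mice 2 and 3 were at -0.03 and 0.08. The other 13 detected arms, too rarely detected to test, were at the floor on every array of mouse 1 in zones 5 to 8. In mouse 3 only miR-467b-3p among them was detected, in zone 5 at 1.13. In mouse 2 each was highest in zone 6, with miR-467a-3p at 3.04, 3.76, 2.36 and 2.04 over zones 5 to 8. The median between zone pairs stayed below 0 for all 11 under the main and 4 other scalings, at -0.29 to -0.45. With mouse 1 left out, 6 of 302 slopes passed the adjusted threshold downward and 1 upward, that of miR-100-5p. The 6 were those of miR-466h-3p, miR-466q, miR-467f, miR-669c-3p, miR-669p-3p and miR-3068-3p. With only the zone 6 array of mouse 1 left out, 9 of 302 passed downward and 4 upward. The 9 were those of miR-466f-3p, miR-466h-3p, miR-466i-3p, miR-466q, miR-467f, miR-669c-3p, miR-669f-3p, miR-669p-3p and miR-709. The 4 were those of miR-193b-3p, miR-23a-3p, miR-27a-3p and miR-802-5p. Single arrays were left out after the data were seen, and this array is the one where the members dipped in mouse 1. These calls are thus not independent evidence.

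**Figure D4:**
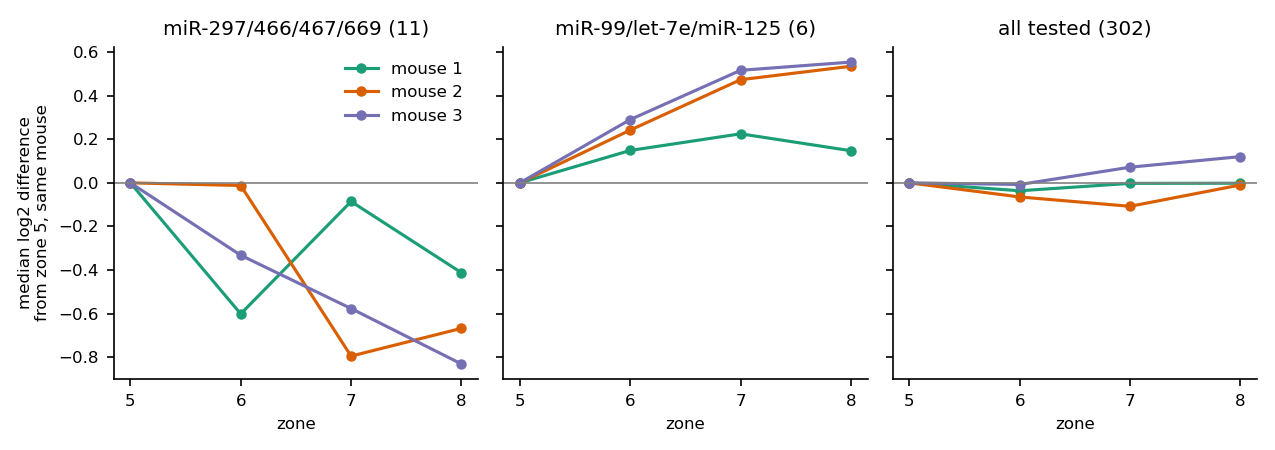
Median log2 difference from the zone 5 array of the same mouse (vertical) against zone (horizontal), one line per mouse, for the 11 tested miR-466, miR-467 and miR-669 members, the 6 tested miR-99, let-7e and miR-125 members and all 302 tested microRNAs. The label of the first panel also names miR-297, which had no tested member. In mouse 1 the first families dip to -0.60 in zone 6 and return to -0.09 in zone 7, while mice 2 and 3 end at -0.67 and -0.83.

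Among other microRNAs with lower levels in all 3 mice, miR-34a-5p, a target of p53, ranged from 5.09 to 5.32 in zones 7 and 8, with a difference of -0.19 ± 0.07. miR-3535 measured 1.44, 1.54 and 1.33 in zone 5 and 1.03, 0.52 and 0.99 in zone 8 of mice 1, 2 and 3, a difference of -0.59 ± 0.16 between those zones (limma adjusted p 0.141). miR-7036a-5p and miR-6997-5p were at -0.44 ± 0.11 and -0.58 ± 0.14 between the same zones, with the same adjusted p of 0.141. miR-466g, miR-3082-5p, miR-8110, miR-3069-3p, miR-423-5p, miR-3472 and miR-5126 had differences of -0.16 to -0.73 between the zone pairs, and on the high side miR-7666-3p, miR-290a-5p, miR-140-5p and miR-6236 were at 0.17 to 1.12. The 14 microRNAs picked because they were lower toward the portal end over all 8 zones of these mice included 4 above 0 here, and their median was -0.14, with miR-721 at 0.47 ± 0.46. The 143 tested microRNAs numbered 1000 or above had a median of -0.03 and the 159 below 1000 a median of 0.09. The first changed sign without scaling and with quantile normalization, to 0.04 and 0.0045. It also did so without zone 5 and without zone 7, to 0.05 and 0.03.

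The profile over the zones was also tested as a slope and as any difference among the 4 zones. No slope passed the adjusted threshold in limma (0 higher and 0 lower of 302, 0%, smallest adjusted p 0.110), with 21 (6.95%) above 0 and 23 (7.62%) below 0 at an unadjusted p under 0.05. The F test over the 4 zones also gave 0 (0%), with 28 (9.27%) at an unadjusted p under 0.05. Its 5 smallest p belonged to miR-802-5p, miR-709, miR-149-5p, miR-193b-3p and miR-31-5p, with adjusted p of 0.0851, 0.0851, 0.0987, 0.452 and 0.452. Zone 8 against zone 5 gave 19 (6.29%) higher and 22 (7.28%) lower at that unadjusted level.

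Slopes in zones 5 to 8 were then compared with those in zones 1 to 4, which share the slide columns. None of the differences passed the adjusted threshold in limma (0 higher and 0 lower of 302, 0%, smallest adjusted p 0.0659), with 24 (7.95%) higher and 17 (5.63%) lower at an unadjusted p under 0.05. miR-24-3p had a slope of 0.06 ± 0.03 per zone in zones 5 to 8 and -0.12 ± 0.02 in zones 1 to 4, a difference of 0.18 ± 0.04. miR-23a-3p had slopes of 0.16 ± 0.04 and -0.07 ± 0.05, a difference of 0.23 ± 0.06. miR-1949 had slopes of -0.07 ± 0.05 and 0.37 ± 0.05, a difference of -0.43 ± 0.11. These 3 and miR-193b-3p, whose 12 pericentral values are all at the floor, shared the smallest adjusted p. For miR-709 the slopes were -0.19 ± 0.05 and 0.03 ± 0.04, a difference of -0.22 ± 0.07. Differences for miR-31-5p and miR-193b-3p, on the other side of 0, were 0.33 ± 0.10 and 0.37 ± 0.10. Both were undetected in zones 1 to 4, so the floor fixes their slope there at 0. Their difference is thus the slope in zones 5 to 8 alone, and their floor values, which have no spread, enter the error of the fit. After miR-1949 and miR-709, the next lower ones were miR-21a-3p, at -0.15 ± 0.05, and miR-3082-5p, at -0.34 ± 0.12.

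**Figure D5:**
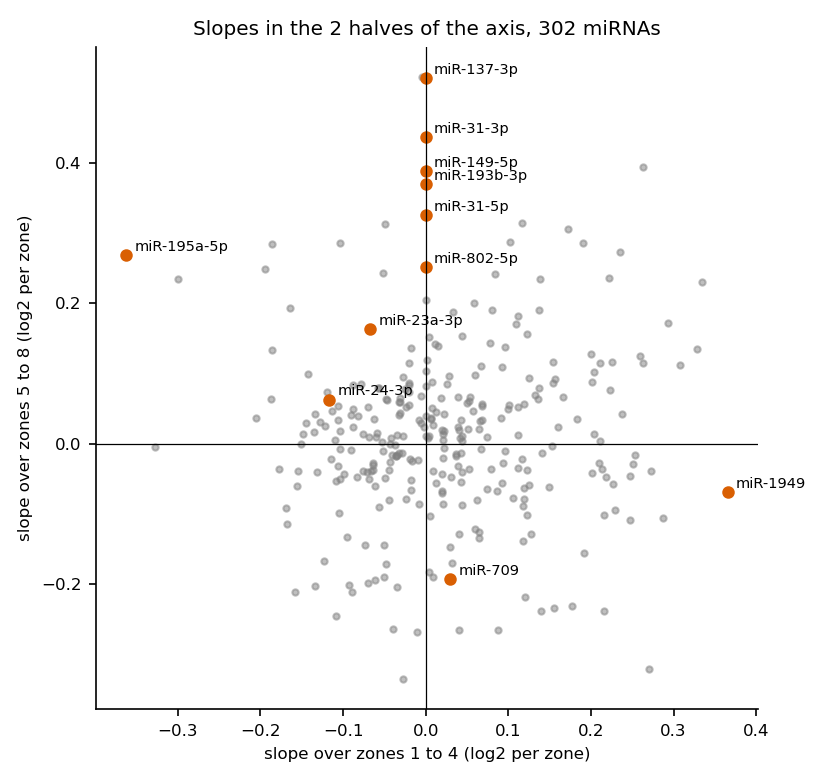
Slope over zones 5 to 8 (vertical) against slope over zones 1 to 4 (horizontal), both in log2 scaled signal per zone, for 302 microRNAs, 11 of them named. Those at a horizontal value of 0 were undetected in zones 1 to 4, miR-24-3p and miR-23a-3p lie to the upper left at -0.12 and -0.07, and miR-1949 lies far right at 0.37 with a slope of -0.07 in zones 5 to 8.

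Sequence properties were set beside the differences as a description. Across the 258 microRNAs with a sequence, the G and C content of the mature RNA and the difference between zone pairs had a Pearson r of -0.16, from -0.20 in mouse 3 to 0.0003 in mouse 1. These are values across microRNAs on shared arrays. Of 18 seeds held by 2 or more tested microRNAs, the highest medians were those of ACUGGCC (miR-193a-3p and miR-193b-3p, 0.46) and ACCCGUA (miR-99a-5p and miR-100-5p, 0.31). The first lies between 0.14 for miR-193a-3p and 0.79 for miR-193b-3p, whose size is set by the floor. The 9 members with the let-7 seed GAGGUAG had differences of 0.05 to 0.28, with let-7e-5p the highest.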

How the data were processed

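Total RNA was labelled with Cy3 and hybridised to one-colour Agilent mouse microRNA arrays, 1 array per zone and mouse. Per the file headers, the deposited values are total gene signals, an intensity per microRNA, with their error and a detection flag; the submitters' processing notes name Agilent Feature Extraction, and further steps before deposit were not stated in these sources. The error and the detection flag, other values deposited by the authors, were used as given.

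Control rows were left out, each array was divided by its 75th percentile over the 198 microRNAs detected on all 24 arrays and multiplied by the mean of those percentiles, and signals were floored at 1.12 (the median lowest detected signal) and taken to log2. limma 3.58.1 in R 4.3.3 (lmFit, eBayes) was run on microRNAs detected on at least 6 of 12 arrays with mouse as a block, two-sided, with Benjamini-Hochberg adjustment at 0.05. SE is the moderated fit's. Same-mouse arrays deviated together (median correlation 0.555, lowest 0.127). The fits were tested on simulated data. Named microRNAs were the 12 with the smallest p in each direction of one sign in all 3 mice (4 for slope, zone 8 against zone 5 and slope difference), the 5 smallest F tests and members of lists. Members and lists were chosen with earlier results of these data known. The number of arrays limits precision. Alternatives covered scaling, floor, filter, block, pooling, each mouse, zone and array, the single arrays added after seeing the data.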

Additional observations from a re-analysis of the deposited data

Results flagged for a closer look

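Of 66 groups of 6 arrays examined, 6 held a sample far from the others by Dixon's criterion, which chance meets in about 1 of 20 groups. In zones 7 and 8 the zone 7 array of mouse 1 was the far one for 4 microRNAs: miR-193b-3p and miR-7666-3p were at the floor there (both 0.165), miR-125a-3p was lowest at 0.724 and miR-34a-5p highest at 5.317. The zone 7 array of mouse 3 was lowest for miR-140-5p at 3.36. In zones 5 and 6 the zone 5 array of mouse 2 was lowest for miR-31-3p at 1.552.

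Among sequences outside the main measurement, the controls dmr_285, dmr_3, dmr_31a and dmr_6 each had a signal on 8.0 of 12 arrays, all those of mice 1 and 2 and none of mouse 3, equally in both zone pairs. The corner control miRNABrightCorner30 had one on 11 of 12.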

How the results depend on the processing

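With 3 mice, and microRNAs near the floor resting on few detected arrays, small differences could not be told from the spread. The call of miR-802-5p held in 6 and that of miR-709 in 5 of 25 alternatives, with differences of 0.61 to 1.03 and of -0.73 to -0.31 that never changed sign. Same-mouse arrays were paired by a block; without the replicate block, without scaling, with the summed signal, quantile normalization or the 75th percentile over the 12 arrays, zone 8 against zone 5 gave 0 higher and 0 lower. With all 24 arrays in the fit, the zone pairs gave 4 higher, the slope 6 higher and 1 lower, the F test 4, zone 8 against zone 5 gave 6 higher and zone 6 against zone 5 gave 1 higher; values at the floor in zones 1 to 4 have no spread and enter that fit's error. Without zone 6 the zone pairs gave 2 higher and 1 lower. The F test gave 2 with only microRNAs detected on all 12 arrays and 2 with a trended, robust fit, which also gave 1 lower for zone 6 against zone 5. The slope difference gave 1 higher (miR-24-3p) with that filter, with the filter at 1 array, with the lower floor and with the trended fit, 1 lower with the first filter, 1 higher without zone 7 and 2 higher without zone 8.

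Leaving out a mouse or an array gave 0 to 1 higher between the zone pairs (1 without mouse 1 zone 7), 0 to 4 higher and 0 to 9 lower slopes (both without mouse 1 zone 6), 0 to 3 in the F test, and 0 to 4 higher with 0 lower for zone 8 against zone 5. Zone 6 against zone 5 gave 0 to 4 higher and 0 to 1 lower (1 without mouse 2 zone 6). The highest values of the F test and of both upward counts came without mouse 3 zone 5.

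Among named microRNAs, 18 of the alternative differences between zone pairs changed sign, none of them past a threshold, and the cause was not tested. miR-21a-3p went to -0.011 with the summed signal, -0.065 with the percentile over 12 arrays, -0.058 and -0.0039 without zones 6 and 7, and from -0.034 to 0.044 over left-out mice and arrays, below 0 without mouse 3 (-0.030) and without its zone 6 or zone 7 array (-0.0094). miR-125a-3p was at -0.10 without zone 8 and from -0.040 (without mouse 1 zone 8) to 0.48 over left-out mice and arrays, miR-137-3p at -0.043 without zone 5, and miR-192-5p and let-7a-5p at -0.020 and -0.041 with quantile normalization. miR-107-3p was at -0.044 with the percentile over 12 arrays, and -0.093 and -0.0086 without mouse 3 or its zone 5 array. miR-210-3p ranged from -0.0045 (without mouse 2) to 0.34 over left-out mice and arrays, and miR-126a-3p at 0.034 with quantile normalization and 0.12 without zone 6.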
